A study of Zea mays with 9 samples.

Results

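The roots of maize seedlings fed organic nitrogen, as free amino acids or as a protein hydrolysate, were compared with roots fed inorganic nitrogen. All 9 arrays of the series were used. The 3 arrays of the amino acid treatment (Aa) and the 3 of the protein hydrolysate treatment (Bio) were chosen by their titles and joined as 1 organic group of 6, and the 3 inorganic nitrogen arrays (N) were the other group. The array design gives 1 probe to a transcript, and all 39372 transcripts were examined.

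The plants were seedlings of the hybrid P0423, germinated in the dark and then kept on calcium sulfate, and are labelled as 4 days old. They stood for 3 days in a diluted nutrient solution in which total nitrogen was held at 11.3 mg per litre in every treatment. The N solution contained ammonium dihydrogen phosphate, the Aa solution a mixture of free amino acids composed after those of the hydrolysate, and the Bio solution an animal-derived protein hydrolysate at 0.1 ml per litre, which holds peptides besides free amino acids. Each array measured the pooled roots of 24 seedlings, and the replicates are described as independent. In the study's methods the diluted nutrient solution of all treatments held potassium and ammonium dihydrogen phosphate, though its results call it free of nitrogen. The salt of the N solution supplies further phosphate, so the form of nitrogen and this added phosphate cannot be told apart here.

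Plant roots take up ammonium and nitrate through dedicated transporters, and they also import amino acids and short peptides through permeases of other families. Nitrogen supply is tied to root branching through hormones, among them auxin and gibberellin. Grasses acquire iron by releasing phytosiderophores, which are made from nicotianamine and bind ferric iron in the soil before a transporter of the yellow stripe family brings the complex into the root.

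Each of the 3 slides held 1 array of every treatment, with N, Aa and Bio always at the same position, so position and treatment cannot be told apart. The N arrays had between 29974 and 32309 probes with signal well above background, and the organic arrays between 27019 and 31277 (two-sided exact permutation test, p = 0.19, the smallest possible p being 0.024). The 75th percentile of the intensities lay between 617 and 962, and 0 spots were saturated. Of the markers of leaf tissue, 4 of 13 photosynthesis transcripts had such signal in every sample, and the summed level of the 13 lay between 0.09 and 2.0 on the N arrays, between -0.21 and 1.41 on the Aa arrays and between 1.52 and 4.27 on the Bio arrays. The summed level of 10 seed storage transcripts lay between -0.34 and 0.29 on the N arrays and between -0.67 and 0.76 on the organic arrays. Of 4 root markers, nas1 had signal well above background in every sample. For rtcs this held on 3 of 3 N and 5 of 6 organic arrays. The summed level of the 4 lay between 3.47 and 5.41 on the N arrays. It lay between 6.84 and 7.5 on the Aa arrays and between 4.84 and 6.90 on the Bio arrays. Among them nas1 and nas2 were higher and rtcs lower in organic nitrogen in mean, so this sum cannot serve as a measure of root content. The part of these markers in the results was not tested. In whole roots, fewer cells of a type and less RNA per cell cannot be told apart. Levels below are the log2 of the processed signal minus the 75th percentile of the same array. A difference is the organic level minus the N level on that log2 scale, from a limma fit with the slide as a block, and is given with its standard error.

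No transcript passed the threshold of an adjusted p of at most 0.05 in the comparison of organic with inorganic nitrogen (0% of the 38687 transcripts with a value). The smallest adjusted p of limma was 0.13, shared by 21 transcripts, and 3783 transcripts (9.78%) had an unadjusted p below 0.05. The study compared the treatments in pairs with p from permutation, and its procedure was not rerun here. A pooled-variance test of all organic against all N arrays, without a block, also called 0 after adjustment. Everything that follows is therefore a description of the leading transcripts and not a list of called ones. A second tier held transcripts whose p before adjustment did not exceed 0.01 and that differed 2-fold or more, that is by 1 on the log2 scale. There were 581 of them (1.5%), of which 213 were higher (0.551%) and 368 lower (0.951%) in organic nitrogen. Under normexp background correction, which shifted the overall median by -0.42, the tier held 109 higher and 40 lower transcripts once that shift was taken off. The difference was 4-fold or more for 24 of the higher and 76 of the lower transcripts, and the medians of the differences were 1.41 and -1.48. In 340 of the 581 the 6 organic arrays did not overlap the 3 N arrays, against 3.8% of all transcripts, and as the tier was chosen on the same contrast this count is a description only. Just inside the limit on p lay GRMZM2G165192 with a difference of 1.16 and GRMZM2G028543 with 1.11, and just outside lay GRMZM2G025477 with 1.39 and GRMZM2G147491 with -1.38.

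**Figure D1:**
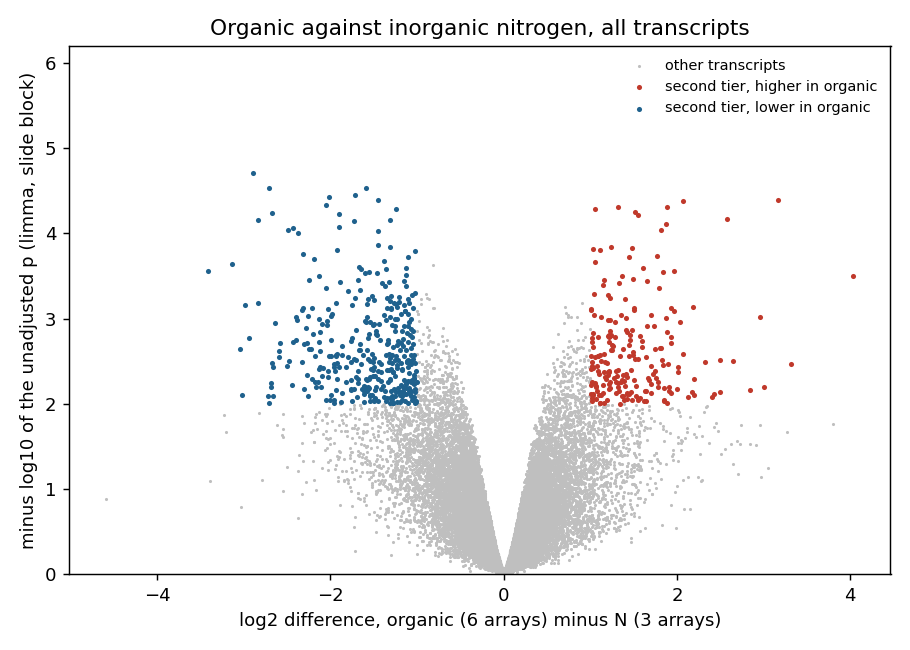
Difference between organic and inorganic nitrogen (x axis, log2) against the size of the unadjusted p (y axis, minus log10) for each transcript with a value. The 213 second-tier transcripts higher in organic nitrogen are red and the 368 lower ones blue, and 0 transcripts passed the adjusted threshold.

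The Aa and Bio arrays were also set against N one at a time, and both comparisons use the same N arrays. Among the 213 higher transcripts the median difference from N was 1.47 in Aa and 1.35 in Bio, and among the 368 lower ones -1.46 in both. A direct comparison of Bio with Aa was taken from a fit that also held the N arrays, so it is not independent of them. This comparison also gave 0 transcripts past the adjusted threshold (smallest adjusted p 0.66, with 7.52% at an unadjusted p below 0.05). Of the higher transcripts 24 (11.3%) and of the lower ones 22 (5.98%) had an unadjusted p below 0.05 between Bio and Aa. These shares lie on either side of the background of 7.52%, and the tier favours transcripts for which the 6 organic arrays lie together.

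The 12 leading transcripts on each side were taken by p among second-tier transcripts without overlap, with no marked spot and with the brighter group well above background. The lower ones are given first. GRMZM2G173732, described as BIG GRAIN 1-like (a family linked in rice to auxin transport), had levels of -2.82, -3.12 and -3.31 on the N arrays, and the 6 organic arrays ranged from -5.28 to -3.93 with a median of -4.67. The groups did not overlap, and the difference was -1.58 ± 0.17 (adjusted p = 0.13), that is 3-fold lower. A pectate lyase, GRMZM2G126083, which cuts pectin in the wall, stood at -1.20, -0.99 and -0.14 in N and from -3.06 to -1.21 with a median of -2.10 in the organic arrays. Here too every organic array lay below every N array, with a difference of -1.31 ± 0.16 (adjusted p = 0.13). A carboxypeptidase, GRMZM2G126541, belongs to enzymes that trim proteins from their carboxyl end. Its N arrays read 2.33, 3.18 and 2.16 and its organic arrays from 0.25 to 0.99 with a median of 0.68, a difference of -1.91 ± 0.24 (adjusted p = 0.14).

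BAP2, GRMZM2G104622, was well above background on all 3 N arrays and on none of the organic ones. Its measured mean was -5.16 ± 0.64 in N (SD, n = 3) and -7.87 ± 0.47 in organic nitrogen (SD, n = 6), and against the lowest detectable signal it was at least 1.81-fold higher in N (adjusted p = 0.13). For GRMZM2G019356, which has no description in the sources used, the same bound was 2.1-fold (adjusted p = 0.13). In both bounds the dim group was given, on each array, the higher of its own signal and the lowest signal of any probe well above background. The other 7 leading lower transcripts were GRMZM2G086410, GRMZM5G885766, GRMZM2G000453, GRMZM2G071339, a glycosyltransferase (GRMZM2G007012), GRMZM2G335685 and GRMZM2G467435. Their differences ran from -2.89 for GRMZM2G086410 to -1.25 for GRMZM2G071339, and GRMZM2G000453 was well above background on 2 of 6 organic arrays. By the rule that chose them, none of the 12 had overlapping groups.

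Among the leading higher transcripts, the alkaline alpha-galactosidase AGA3a (GRMZM2G050273), which releases galactose from raffinose-type sugars, read 0.97, 1.15 and 1.29 in N and from 1.84 to 2.79 with a median of 2.57 in the organic arrays. Its difference was 1.32 ± 0.16 (2.49-fold, adjusted p = 0.13), and Bio and Aa lay 1.44 and 1.20 above N. A 3-ketoacyl-CoA synthase (GRMZM5G894016), of the enzyme class that elongates fatty acids for waxes and suberin, had -4.38, -4.24 and -3.25 in N and from -2.65 to -2.21 with a median of -2.44 in the organic arrays, a difference of 1.52 ± 0.18 (adjusted p = 0.13). Neither of these enzymes had an organic array as low as any N array.

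A carboxypeptidase, GRMZM2G373607, had the largest fitted difference of the second tier. It was well above background on 6 of 6 organic arrays, where it ranged from -5.87 to -2.76 with a median of -4.21, and on 0 of 3 N arrays, which read -8.89, -8.04 and -8.22. Its level was at least 4.18-fold higher in organic nitrogen, with a measured mean of -4.35 ± 1.40 (SD, n = 6) against -8.38 ± 0.45 (SD, n = 3). The fit gave adjusted p = 0.2. The organic arrays spread widely for this gene, with the lowest levels on the third Aa and the third Bio array.

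The remaining 9 leading higher transcripts included a pair described as signal peptidase I, a class of enzymes that removes the leader of secreted or imported proteins: GRMZM2G142214 differed by 1.24 ± 0.17 and GRMZM5G827810, well above background on 2 of 3 N arrays, by 1.97 ± 0.30. A leucine-rich repeat receptor kinase (GRMZM2G123450) differed by 1.03 ± 0.14 and a MYB-domain protein (GRMZM2G143274), of a family of transcription factors, by 1.61 ± 0.24. GRMZM2G007969, GRMZM2G077106, GRMZM2G108527, GRMZM2G590448 and AC211891.4_FGT003 have no description in the sources used and differed by 1.48 to 2.58. The adjusted p of these 9 lay between 0.13 and 0.20.

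**Figure D2:**
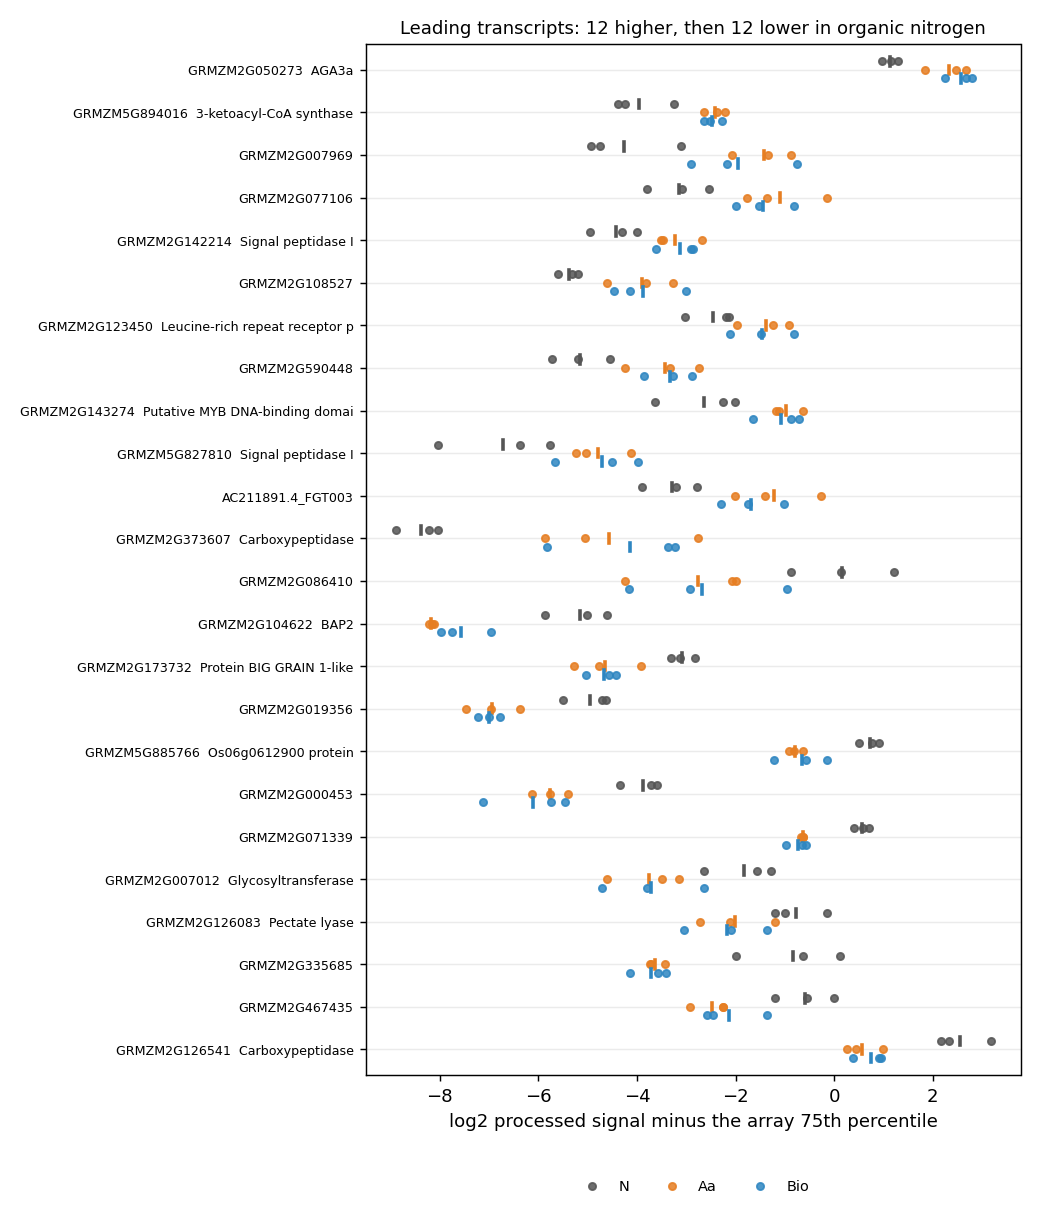
Level of the 12 leading higher and 12 leading lower transcripts on each array (x axis, log2 processed signal minus the array 75th percentile), with N in grey, Aa in orange and Bio in blue. Points are single arrays and bars are treatment means. In every row the 6 organic arrays lie on 1 side of the 3 N arrays, which was part of the rule of choice.

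The synthesis enzymes and the main carriers of the phytosiderophore route had higher mean levels in organic nitrogen, with Aa above Bio, while 4 yellow stripe-like genes lay near N. Of 10 listed transcripts, 2 were in the second tier, both higher (background 0.551%), 5 had an unadjusted p below 0.05, all 5 higher (background 4.26%), and 0 were lower by either rule. The median difference was 2.02, against 0.01 over all transcripts. None passed the adjusted threshold.

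Nicotianamine is made by nicotianamine synthase. The transcript of nas1 (GRMZM2G385200) read 3.70, 2.47 and 5.28 in N, 6.78, 7.45 and 6.99 in Aa and 5.17, 4.63 and 6.85 in Bio. All Aa arrays lay above all N arrays, whereas the Bio arrays overlapped them. The difference was 2.49 ± 0.68 (adjusted p = 0.35). The transcript of nas2 (GRMZM2G030036) read -4.49, -5.72 and -3.05 in N, -1.04, 0.62 and 0.06 in Aa and -3.76, -4.32 and -0.58 in Bio, with a difference of 2.92 ± 1.09 (adjusted p = 0.45). A further transcript described as a NAS1 protein, AC233955.1_FGT003, which was singled out after its values were seen, differed by 3.01 ± 0.79. RNA of near-identical nicotianamine synthase copies may bind the same probe, so these members are uncertain.

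Nicotianamine aminotransferase, naat1 (GRMZM2G096958), which turns nicotianamine into the precursor of deoxymugineic acid, had levels of -6.35, -7.94 and -4.73 in N, -2.60, -1.57 and -2.38 in Aa and -4.30, -4.70 and -2.59 in Bio. None of the organic arrays overlapped the N arrays, though the second Bio and the third N array lay close together, and the difference was 3.32 ± 0.78 (9.96-fold, adjusted p = 0.31). Deoxymugineic acid synthase, DMAS1 (GRMZM2G060952), which makes deoxymugineic acid itself, read -0.03, -0.15 and 0.59 in N, 1.83, 3.22 and 2.58 in Aa and 0.50, -0.12 and 2.04 in Bio, with a difference of 1.54 ± 0.69 (adjusted p = 0.53). For DMAS1 the lower Bio arrays overlapped N. The signals of nas2 and naat1 were well above background on 2 of 3 N arrays.

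Transport of the chelator was represented by an efflux and an uptake carrier. The transcript named YS3 or TOM1 (GRMZM2G063306; TOM1 exports deoxymugineic acid in rice) read -2.58, -3.0 and -0.71 in N, 2.08, 3.19 and 2.65 in Aa and -1.41, -1.71 and 2.25 in Bio, a difference of 3.27 ± 1.13 (adjusted p = 0.42). Here the first and second Bio arrays lay within the N range. The uptake transporter ys1 (GRMZM2G156599) had 2.35, 1.53 and 2.09 in N, 4.54, 5.79 and 4.95 in Aa and 2.48, 2.53 and 4.46 in Bio. All organic arrays of ys1 lay above the N arrays, and the difference was 2.62 ± 0.89 (adjusted p = 0.45), fitted on 6 spots because those of the first slide were marked by the scanner software.

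Across these members the third Bio array stood close to the Aa arrays, and the first and second Bio arrays stood within the N range or between it and Aa. That range spans slides. Compared within slides, each Bio array lay above the N array for nas1, nas2, naat1, DMAS1, YS3/TOM1 and ys1. Some of these gaps were small, as for DMAS1 on the second slide, and the ys1 spots of the first slide were marked. Between Bio and Aa the difference was -2.93 for YS3/TOM1 (adjusted p of limma = 0.66), -2.76 for nas2 (adjusted p = 0.66) and -1.74 for DMAS1 (adjusted p = 0.66). The other 4 members, the yellow stripe-like genes ysl11, ysl12, ysl14A and ysl17, differed by -0.17 to 0.55, and ysl17 was not well above background on any array. A probable metal-nicotianamine transporter of the same family, GRMZM2G024196, read -0.43, -1.27 and -0.98 in N and from 0.29 to 1.55 with a median of 0.62 in the organic arrays, without overlap and with Bio above Aa in mean, by a difference from N of 1.65 ± 0.32 (adjusted p = 0.26). The metal transporter Nramp1 (GRMZM2G147560), singled out after its values were seen, differed by 1.22 ± 0.33.

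**Figure D3:**
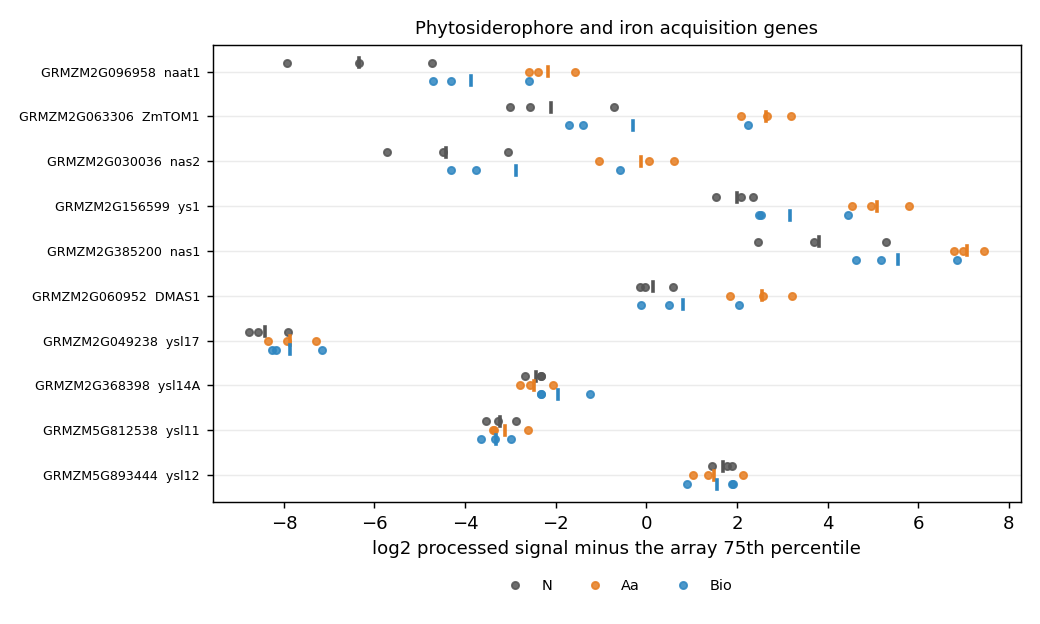
Level of the 10 transcripts of the phytosiderophore list on each array (x axis, log2 processed signal minus the array 75th percentile), with N in grey, Aa in orange and Bio in blue and bars at treatment means. For naat1, YS3/TOM1, nas2, ys1, nas1 and DMAS1 the 3 Aa arrays lie above all N arrays, while the first and second Bio arrays lie below the third. For these genes each Bio array lies above the N array of its slide.

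Carriers of nitrate and peptides lay on both sides. The high-affinity nitrate transporter nrt2.2 (GRMZM2G010251) read -2.16, -1.45 and -0.61 in N, 0.36, 2.67 and 2.43 in Aa and -0.82, -0.12 and 2.94 in Bio. Its difference was 2.65 ± 0.62 (6.28-fold, adjusted p = 0.31), and 1 Bio array fell inside the N range. Its neighbour in name, nrt2.1 (GRMZM2G010280), differed by 1.35 ± 0.53 with overlap. The transcript with the RefSeq symbol NRT1.2 (GRMZM5G811593) differed by 0.50 ± 0.24, and both transcripts named Nrt1.1 were not well above background on any array. In all, 1 of the 5 listed by symbol was in the second tier, higher (background 0.551%), and 0 lower.

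Other carriers could be listed only through the descriptions of the study, which were given to transcripts it chose on these arrays, so their direction is not independent evidence. Of 7 transcripts described as nitrate or peptide transporters, 3 were in the second tier and lower (background 0.951%), and 1, nrt2.2, was higher (background 0.551%). The lower ones were GRMZM2G347457, well above background on 5 of 6 organic arrays, with a difference of -1.55 ± 0.24, GRMZM2G122712 with -1.37 ± 0.23 and GRMZM2G137421 with -1.07 ± 0.20. GRMZM2G137421 is described as the peptide transporter PTR2 in the study's table and named ZmNRT1.2, a low-affinity nitrate transporter, in its text, so its substrate is not settled here. It read -0.64, 0.26 and 0.04 in N and from -1.50 to -0.82 with a median of -1.20 in organic nitrogen, without overlap. In the oligopeptide transporter family, oligopeptide transporter 1 (GRMZM2G152555) was higher, with -4.18, -3.93 and -2.87 in N and from -2.74 to -1.78 with a median of -2.53 in organic nitrogen, a difference of 1.23 ± 0.21 (adjusted p = 0.24). Oligopeptide transporter 4 (GRMZM2G112456) differed by -0.93 ± 0.35. An amino acid carrier, GRMZM2G180547, differed by 1.82 ± 0.40 and by 1.82 in Aa and 1.82 in Bio against N, although 1 Bio array overlapped N.

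For enzymes that build ammonium into amino acids, no member reached the second tier. Of 12 listed transcripts for nitrate reductase, glutamine synthetases, asparagine synthetases and glutamate dehydrogenase, 0 were in the second tier (background 1.5%) and 0 had an unadjusted p below 0.05 (background 9.78%), counts too small to read anything from, and the median difference was -0.21. Nitrate reductase NR1 (GRMZM2G568636) differed by -0.56 ± 0.26 and glutamate dehydrogenase gdh1 (GRMZM2G178415) by -0.09 ± 0.17, with overlap in both.

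Phosphate transporters move phosphate into root cells. Of 11 listed transcripts, 1 was in the second tier and lower (background 0.951%), and 0 were higher. The transcript pht11 (GRMZM2G139639) was well above background on all 3 N arrays, at -5.93, -4.33 and -5.47, and on 0 of 6 organic arrays. It was at least 1.7-fold higher in N (measured means -5.24 ± 0.82 in N, SD, n = 3, and -7.25 ± 0.84 in organic nitrogen, SD, n = 6; adjusted p = 0.36). For pht6 (GRMZM5G881088) the N arrays read -0.46, -1.75 and -1.05 and the organic arrays from -5.73 to -1.07 with a median of -3.42, a difference of -2.19 ± 0.80 with overlap. The transcripts pht7, pht1 and pht2 differed by -1.18, -0.50 and 0.34. For pht9 the fit rested on 3 unmarked spots, so no value is given.

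Gibberellin genes differed in both directions. Of 9 tested transcripts with such a description by the study, 2 were in the second tier and higher (background 0.551%) and 2 lower (background 0.951%), and the study chose them on these arrays. Of 3 listed by symbol, 0 were in the tier and 0 had an unadjusted p below 0.05. Gibberellin 3-beta-dioxygenase 1 (GRMZM2G046669), which makes the active hormone, read 1.30, -0.36 and 0.70 in N and from 2.07 to 3.25 with a median of 2.25 in the organic arrays, without overlap, a difference of 1.94 ± 0.41 (3.83-fold, adjusted p = 0.29). Gibberellin 2-oxidase (GRMZM2G022679), which inactivates it, had 0.54, 0.80 and 1.03 in N and from -0.62 to 0.18 with a median of -0.46 in the organic arrays. The groups were again separate, and the difference was -1.15 ± 0.20 (adjusted p = 0.24). Dwarf plant3 (GRMZM2G089803), which makes an earlier gibberellin precursor and was singled out after its values were seen, was well above background on 2 of 3 N arrays and differed by 2.95 ± 0.56, with -4.89, -7.11 and -3.78 in N and from -3.54 to -1.05 with a median of -2.39 in organic nitrogen.

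Among transcripts described as gibberellin receptors, GRMZM2G012546 was at least 2.11-fold higher in organic nitrogen (adjusted p = 0.36), with 3 of 6 organic and 0 of 3 N arrays well above background. GRMZM2G034917 differed by 0.94 ± 0.19 and GRMZM2G001977 by -0.94 ± 0.21. The gibberellin-regulated proteins GRMZM2G164090 and GRMZM2G150688 differed by -1.93 ± 0.45 and -1.49 ± 0.44, the latter with overlap, and GRMZM2G164090 was well above background on 3 of 6 organic arrays. The growth repressors of the DELLA class, D8 (GRMZM2G144744) and d9 (GRMZM2G024973), gave -0.07 ± 0.26 and -0.16 ± 0.22, with overlapping groups in both and signs that turned under other settings.

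Auxin genes with a small p were mostly lower in organic nitrogen, while the list as a whole lay near 0. Of 49 transcripts listed by symbol, 1 was in the second tier and lower (background 0.951%), a count from which nothing is read. At an unadjusted p below 0.05, 9 were lower (background 5.52%) and 1 was higher (background 4.26%). The median difference of the list was -0.04. PIN8 (GRMZM5G839411), an auxin carrier, read -2.10, -2.37 and -2.97 in N and from -5.75 to -3.73 with a median of -4.29 in organic nitrogen, without overlap, a difference of -1.93 ± 0.43 (adjusted p = 0.31), with 5 of 6 organic arrays well above background. The response factor ARF4 (GRMZM2G034840) differed by -0.88 ± 0.23 and the Aux/IAA protein AUX22 or BIF1 (GRMZM2G130953), a repressor of auxin response, by -0.52 ± 0.14.

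Of the auxin transcripts described by the study, which it chose on these arrays, 9 of 10 were lower in mean, 2 of them in the second tier (background 0.951%). SAUR31 (GRMZM2G420812), from a family of small auxin-induced proteins, read -0.98, 0.12 and -0.57 in N and from -2.19 to -1.09 with a median of -1.98 in organic nitrogen, with a difference of -1.39 ± 0.20 (adjusted p = 0.19). Further transcripts act on the hormone itself: an indole-3-acetic acid amido synthetase of the GH3 class (GRMZM2G053338), which conjugates auxin, differed by -0.99 ± 0.27, and an indole-3-acetaldehyde oxidase (GRMZM2G141473) by -0.92 ± 0.22. WAT1-related proteins, one of which exports auxin from the vacuole in Arabidopsis, split: GRMZM2G093173 differed by 1.15 ± 0.31, GRMZM2G065230 by -1.45 ± 0.37 and GRMZM2G368591, well above background on 5 of 6 organic arrays, by -1.50 ± 0.53.

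Regulators of root and meristem formation included both directions. The LOB-domain gene rtcs (GRMZM2G092542), which maize needs for crown and seminal roots, read -3.18, -1.60 and -3.18 in N and from -5.95 to -4.30 with a median of -4.43 in organic nitrogen. The groups were separate, and the difference was -2.03 ± 0.37 (4.08-fold lower, adjusted p = 0.24), with 5 of 6 organic arrays well above background. The LOB-domain transcript AC149818.2_FGT009 differed by -1.32 ± 0.31. AC234149.1_FGT002, singled out after its values were seen, was well above background on 3 of 3 N and 0 of 6 organic arrays and was at least 4.26-fold lower in organic nitrogen (adjusted p = 0.24), although 1 Bio array lay just above the lowest N array. LOB27 (GRMZM2G118250) gave 0.02 ± 0.13. CLE peptides, short signals that limit stem cells in meristems, gave -1.23 ± 0.22 for GRMZM2G468688, which was well above background on 2 of 6 organic arrays, and -1.29 ± 0.23 for GRMZM2G466532, and the receptor-kinase transcript named after CLAVATA1 (GRMZM2G438840) 1.91 ± 0.48. The CUC2-like NAC119 (GRMZM2G393433), of a family that sets organ boundaries and likewise singled out after its values were seen, was well above background on 5 of 6 organic arrays and 0 of 3 N arrays, a level at least 3.35-fold higher (adjusted p = 0.13).

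**Figure D4:**
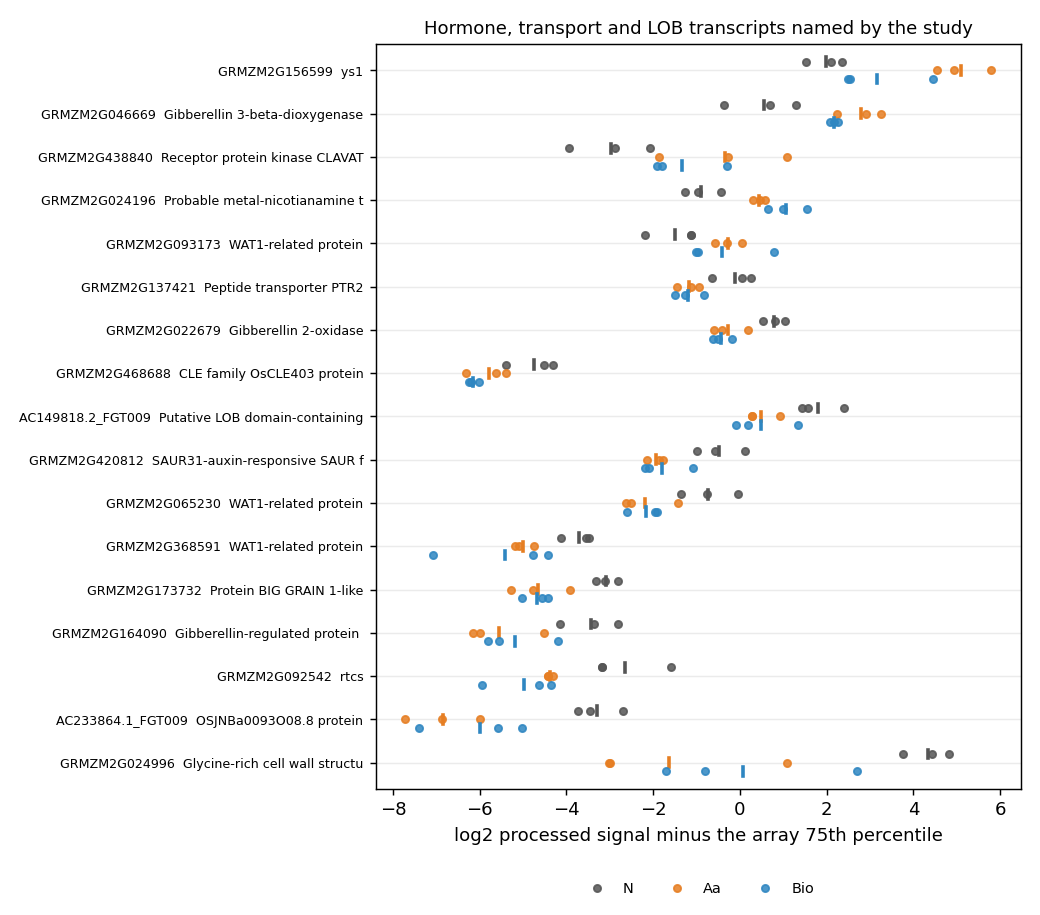
Level of 17 transcripts that the study names as shared by both organic sources, on each array (x axis, log2 processed signal minus the array 75th percentile), with N in grey, Aa in orange and Bio in blue and bars at treatment means. The 5 upper rows are higher and the 12 lower rows lower in organic nitrogen, and these transcripts were picked by the study on the same arrays.

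Cytokinin, jasmonate and transcription factor lists gave few second-tier members. None of 15 cytokinin transcripts was in the tier, and the cytokinin oxidase cko2 (GRMZM2G050997), which degrades the hormone, differed by -1.56 ± 0.48, with -2.16 in Aa and -0.96 in Bio against N. Among 23 tested jasmonate transcripts 1 was in the tier, the lipoxygenase lox12 (GRMZM2G106748), whose difference of 1.76 ± 0.26 rests on the Bio and N arrays alone, as Aa had no fitted value. The WRKY list gave 1 of 19 lower, WRKY30 (GRMZM2G143204) by -1.04 ± 0.29, the AP2/ERF list 1 of 32 lower, EREB27 (GRMZM2G084264) by -1.65 ± 0.39, and the NAC list 2 of 27 higher, NAC22 (GRMZM2G156977) by 1.47 ± 0.36 and NAC119. The bHLH list gave 1 of 44 higher, bHLH161 (GRMZM2G045883) by 1.04 ± 0.18, and the MYB list 0 of 66. The background shares are 0.551% higher and 0.951% lower, and with 0 to 2 members a list nothing is read from these counts.

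Defence proteins described by the study had mostly lower levels in organic nitrogen. Of 18 such transcripts 16 had a value, 8 were in the second tier and lower (background 0.951%), 2 were in it and higher (background 0.551%), and 13 of 16 had a negative difference. These descriptions were attached to transcripts the study chose on these arrays, so the counts are not independent evidence. Of 5 defence transcripts listed by symbol, 1, PR10, was in the tier and lower, 0 were higher, and 2 had a positive and 3 a negative difference. The summed level of the 18 described by the study lay between 7.19 and 8.28 on the N arrays. It lay between 6.28 and 6.56 on the Aa arrays and between 5.87 and 7.13 on the Bio arrays. These Aa and Bio sums lay below all N sums, which is a description only, as the study chose the transcripts on these arrays. For the 5 listed by symbol the sums overlapped, with 5.63 to 7.03 in N, 5.55 to 5.70 in Aa and 4.75 to 6.525 in Bio.

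Chitinases attack fungal cell walls. Endochitinase B (GRMZM2G005633) read 3.50, 4.12 and 2.52 in N and from 0.50 to 1.90 with a median of 0.81 in organic nitrogen, without overlap, a difference of -2.49 ± 0.28 (5.62-fold lower, adjusted p = 0.14). Endochitinase A transcripts GRMZM2G052175, GRMZM2G122708 and GRMZM2G051943 (chiA) differed by -2.83 ± 0.50, -2.68 ± 0.67 and -1.96 ± 0.39. The first of these had its lowest level on the first Bio array and its highest organic level on the second, as did GRMZM2G122708. The probes of such related genes may report on each other's RNA.

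The antifungal protein zeamatin (GRMZM2G374971) read 4.73, 5.10 and 3.97 in N and from 2.02 to 3.95 with a median of 3.15 in organic nitrogen, with a difference of -1.50 ± 0.34 (adjusted p = 0.31). A macrocarpene synthase (GRMZM2G028306), which makes the terpene backbone of maize defence acids, had 3.64, 4.89 and 3.78 in N and from 0.41 to 3.11 with a median of 2.24 in organic nitrogen, a difference of -2.09 ± 0.52 (adjusted p = 0.33). Both were separated from N on every organic array. Transcripts described as pathogenesis-related proteins differed by -1.66 ± 0.36 (GRMZM2G117942), -1.21 ± 0.33 (PR10, GRMZM2G112524) and -1.72 ± 0.49 (GRMZM2G117971). The exceptions were the Bowman-Birk protease inhibitors, which block digestive proteases: GRMZM2G447785 was higher, with -3.87, -4.01 and -2.48 in N and from -2.65 to -0.61 with a median of -1.45 in organic nitrogen, a difference of 1.93 ± 0.40 with overlap, and AC208221.3_FGT002 differed by 1.42 ± 0.39.

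**Figure D5:**
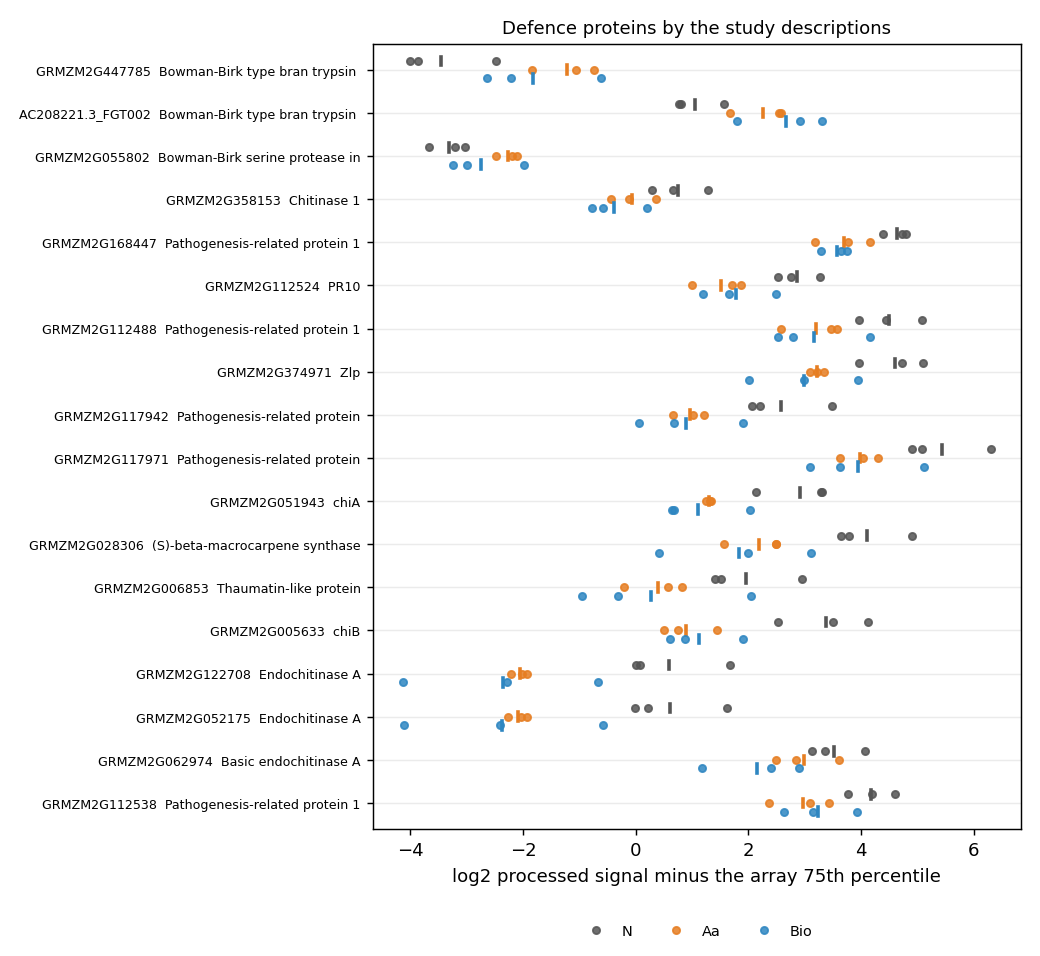
Level of the 18 defence transcripts on each array (x axis, log2 processed signal minus the array 75th percentile), with N in grey, Aa in orange and Bio in blue and bars at treatment means. The last 2 rows have no fitted value. The 3 protease inhibitors at the top are higher and the 13 rows beneath them lower in organic nitrogen, and the second Bio array is the organic array nearest to N in several rows.

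Benzoxazinoids are the main defence compounds of young maize. No list of their genes was made, so the second-tier members named here give no share of the pathway. The O-methyltransferases BX10b (GRMZM2G093092) and BX10c (GRMZM2G106172) differed by -1.67 ± 0.37 and 2.40 ± 0.43, and a dioxygenase of the pathway, GRMZM2G066358, by 1.5 ± 0.27, and all 3 were singled out after their values were seen. Spots of BX10c were marked on 4 arrays, so its fitted difference rests on the other arrays only. With the marked spots kept, its mean level was 2.96 in N and 3.97 in organic nitrogen, much closer together than the fit gives. The probes of these methyltransferases may not separate them. A terpene synthase (GRMZM2G010356), which like endochitinase B and the macrocarpene synthase was singled out after its values were seen, differed by 1.52 ± 0.37.

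Wall proteins differed in both directions. Of 16 expansins listed by symbol 1 was in the second tier, lower (background 0.951%), 3 had an unadjusted p below 0.05 and were lower (background 5.52%), and the median difference was -0.22. Expansins loosen the wall during growth, and the beta-expansin expB6 (GRMZM2G176595) read 5.74, 6.28 and 5.64 in N and from 3.80 to 5.47 with a median of 4.34 in organic nitrogen. The groups were separate, and the difference was -1.44 ± 0.34 (2.71-fold lower, adjusted p = 0.31). Among expansins described by the study, a beta-expansin (GRMZM2G148485) differed by -2.27 ± 0.45, expansin-like A3 (GRMZM2G114322) by -1.14 ± 0.21 and expansin-like 3 (GRMZM2G127072), well above background on only 1 of 3 N and 3 of 6 organic arrays, by 1.05 ± 0.13. The extensin HRGP (GRMZM2G168651), a structural wall glycoprotein, differed by -1.06 ± 0.29. The Casparian strip membrane proteins, which organise the barrier of the endodermis, were likewise listed only through descriptions of transcripts the study chose on these arrays. They were higher in mean: ZmCASP1 (GRMZM2G110832) by 0.99 ± 0.25, without overlap. A glycine-rich wall protein, GRMZM2G024996, had the largest fitted difference of all transcripts, -4.58 ± 2.45, with a large error (adjusted p = 0.66) and 3 marked spots, and it lay between -7.43 and -1.73 when 1 array was left out. Its N arrays read 4.83, 4.43 and 3.76 and its organic arrays from -3.01 to 2.70 with a median of -1.25.

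Sugar transporters of the SWEET family, which release sugar from cells, could be listed only through descriptions of transcripts the study chose on these arrays. Of 4 such transcripts 3 had a negative difference. In the second tier 2 were lower (background 0.951%) and 1 was higher (background 0.551%). GRMZM2G168365 read 0.55, 0.82 and -0.09 in N and from -2.49 to -0.91 with a median of -1.65 in organic nitrogen, with a difference of -2.05 ± 0.34 (4.13-fold lower, adjusted p = 0.22). GRMZM5G872392 differed by -1.06 ± 0.18 and GRMZM2G173669 by 1.32 ± 0.32, with 0.89 in Aa and 1.76 in Bio against N (adjusted p = 0.66 between Bio and Aa). None of these groups overlapped, which is a description only, as the study chose the transcripts on these arrays. Heat shock proteins, chaperones made under heat and other stress, had 1 of 15 in the second tier by symbol and lower (background 0.951%), hsp26 (GRMZM2G149647) with -2.17 ± 0.57, which was well above background on 3 of 3 N and only 2 of 6 organic arrays. Aquaporins, the water channels, had 0 of 22 in the tier (background 1.5%), with TIP3-1 (GRMZM2G305446) at -1.56 ± 0.48. Of 5 peroxidases listed by symbol 1 was in the tier and higher (background 0.551%), and 3 had a positive and 2 a negative difference. This was PER66 (GRMZM2G133475), an enzyme of wall cross-linking and peroxide removal, which differed by 1.78 ± 0.47, with 2.28 in Aa and 1.27 in Bio. Of 19 described by the study, which it chose on these arrays, 3 were in the tier and higher and 2 lower (background 0.951%). For PER66, 1 Bio array overlapped N, and 2 of 3 N arrays were well above background. The root cap protein RCP2 (GRMZM2G146502), singled out after its values were seen, was higher by 1.63 ± 0.44, without overlap.

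Transcripts that the study lists in both of its comparisons with inorganic nitrogen numbered 192. In the joint fit 49 of them were higher and 143 lower in organic nitrogen, and 164 lay in the second tier. They were chosen on these arrays, so these counts follow from the choice.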

How the data were processed

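Each array is a scan of Cy3-labelled root RNA, read by the submitters with Agilent Feature Extraction 10.5.1.1 according to their processing notes. The deposited values used here are processed spot intensity values, which the authors' scanner software had already background-corrected. For each of the 9 arrays the log2 of the processed signal of the 39372 non-control spots, 1 per transcript, was taken minus the 75th percentile of the array. Spots marked as outliers by the software were left out of the fits (5.68% of spots), which left 38687 transcripts with a value. The 6 Aa and Bio arrays together were compared with the 3 N arrays in limma 3.58.1 (R 4.3.3), with slide as a block and Benjamini-Hochberg adjustment over all transcripts. A value table scaled by the authors, equal to the scanner values times 1 factor per array, served as an alternative, and columns of the authors' own comparisons were not used.

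Arrays with the same replicate number share a slide in the scanner files, which is the source of the pairing. In the 9 pairs of arrays from 1 slide the deviations from the treatment means correlated at 0.17 to 0.48 over 20517 transcripts, against -0.56 to 0.29 in other pairs. Named transcripts were the 12 leading ones in each direction, members of the gene lists by p and the transcripts named by the study, and a few were singled out after their values were seen, as stated beside them. Lists were built from RefSeq symbols (18727 transcripts matched, 12 members dropped because the name may belong to another gene) and from descriptions in the study's tables (1016 transcripts). The members and lists were chosen with earlier results of these data known. The number of arrays limits the precision. The fit was tested on simulated data, in which 61 of 100 transcripts changed by 2 and 90 of 100 changed by 4 on the log2 scale were called, with 5 of 39172 unchanged ones. The simulated noise was normal and independent, and each change was the same on every organic array. In the real arrays Aa and Bio could differ, so these rates need not hold for them. Alternatives were another background correction, normalization, filter, block and test, and leaving out each array in turn. No sequences were used here.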

Additional observations from a re-analysis of the deposited data

Results flagged for a closer look

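In 5 of the transcripts described by name, 1 of the 6 organic arrays lay far from the other 5. Chance alone marks about 1 in 20 groups in this way. The named transcripts numbered 104, so chance alone would mark about as many. The first Bio array was lowest for rtcs (GRMZM2G092542), at -5.95 against -4.63 for the next array, and for the WAT1-related GRMZM2G368591, at -7.07 against -5.19. This array had the fewest probes well above background (27019). Its lowest such signal was 18.9, against 8.12 to 11.5 on the other arrays, and both of these levels lay below it. The second Bio array was highest for SAUR31 (GRMZM2G420812), at -1.09 against -1.78, and lowest for MCM7 (GRMZM2G065205), a replication protein, at -1.54 against -0.617. The third Bio array was lowest for GRMZM2G071339, at -0.974 against -0.666. All 5 were Bio arrays, and whether this goes beyond chance was not tested.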

How the results depend on the processing

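The count of transcripts past the adjusted threshold was 0 under every alternative run, the smallest adjusted p being 0.0569 with a trended, robust fit, and Bio against Aa gave 0 in the 3 fits run. Second-tier counts moved more. With normexp background correction the tier held 104 higher and 78 lower transcripts (182 in all). By the pooled-variance t-test without a block it held 77 and 182 (259 in all). In the main fit it held 213 and 368 (581 in all). Normexp shifted the median of all transcripts by -0.42, and relative to it 109 were higher and 40 lower, so lower transcripts made up 26.8% of the tier against 63.3%. The cause was not tested. Leaving out 1 array gave 114 to 379 higher, 219 to 492 lower and 333 to 871 in all. The fewest came without the second N array (114 and 219), and the higher count was 333 without the first Aa array and 379 without the second Bio array. With no replicate block the tier held 165 higher and 346 lower transcripts (511 in all), and calls stayed at 0.

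Of 104 named transcripts 93 reversed under no alternative, the 24 leading ones among them. For these 24 the rule of choice put every organic array on 1 side of every N array. Leaving out 1 array could therefore not reverse them. Relative to the median, normexp gave 0.0819 for GRMZM2G361064, 0.43 for GRMZM2G465226, 1.09 for GRMZM2G047368, 0.13 for MCM7 (GRMZM2G065205), 0.16 for d9 (GRMZM2G024973) and 0.31 for D8 (GRMZM2G144744). Leaving out 1 array gave -1.14 to 0.12 for gln3 (GRMZM2G046601), -0.44 to 0.0632 for GRMZM2G021617, -0.28 to 0.0408 for GRMZM2G108712, -0.13 to 1.39 for GRMZM2G092427, -0.28 to 0.35 for D8 and -0.0441 to 0.12 for LOB27 (GRMZM2G118250).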
